A study of Mus musculus with 12 samples.

Results

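The pigment epithelium visual cycle genes were 10 genes taken by symbol from the 25655 genes of the deposited tables: Ttr, Stra6, Lrat, Rpe65, Rdh5, Rdh10, Rlbp1, Rgr, Rrh and Best1. All 10 had counts in every library and entered every comparison. Whole retinas of C57BL/6J mice of 8 to 10 weeks, both sexes included, were collected 2 days after optic nerve crush (ONC) of the left eye. After ONC each eye received a single intravitreal injection of PBS as the control, of fluvastatin, of MBV, or of both together. Fluvastatin is a statin, an inhibitor of HMG-CoA reductase, and MBV are matrix-bound nanovesicles, lipid vesicles taken from decellularized extracellular matrix. Total RNA was sequenced, and 9 of the 12 libraries had named count columns, 3 each for PBS, fluvastatin and MBV. The combined treatment was not analysed here. All groups carried the injury and an injection, and no uninjured retina was compared.

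The visual cycle returns bleached retinal chromophore to the form that photoreceptor opsins can bind. The retinal pigment epithelium, the pigmented sheet behind the photoreceptors, takes up vitamin A, stores it as retinyl esters, isomerizes it and oxidizes it back to the cis-aldehyde. The sheet lies next to the neural retina and usually stays with the eyecup when a retina is dissected, and some of these genes, Rlbp1 among them, are also expressed by Müller glia.

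The libraries held between 21349516 and 30992040 counts on genes. Sag, the arrestin of rods, stood at 1833 to 3086 CPM, and Rpe65 at 3.00 to 10.1 CPM (82 to 235 counts per library). The defining gene of the pigment epithelium was thus low but present in every library read here. Levels are given in CPM, counts scaled to a common library total, with the trimmed mean of M-values (TMM) normalization. A change was called at an FDR under 0.05 in the quasi-likelihood test of edgeR, adjusted by Benjamini-Hochberg over all genes tested, and "rose" and "fell" are used only of called changes. The study calls the 3 libraries of a group biological replicates, and the labels do not say which animals each came from, so the tests measure the spread between these libraries. The library numbers of PBS and of the single treatments belong to different sets, so set and treatment cannot be told apart in either comparison with PBS. Both comparisons also share the same PBS libraries. In a bulk library, fewer cells of a type and less RNA per cell cannot be told apart.

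The starts of the members' transcripts were examined as a description only. RefSeq promoters of GRCm38.p6 matched 8 of the 10 genes, by 11 windows of 250 bases before the RefSeq start. Each window was placed in GRCm39 by its single exact match on the chromosomes of these 8 genes. The RefSeq starts differ in part from the gene spans given below. The windows of Rdh5 and Stra6 lie inside those spans, and those of Rlbp1, Rrh and Rpe65 run partly into them. Distances are counted back from the RefSeq start. The windows of 4 members follow, 5′ to 3′ on the gene's strand: Rpe65, the isomerase that defines the cycle, Rgr, which rose with fluvastatin, and Rlbp1 and Rrh, which fell with both treatments. They lie at chr3:159304568-159304817 (plus strand) for Rpe65, chr14:36770972-36771221 (minus) for Rgr, chr7:79036776-79037025 (minus) for Rlbp1 and chr3:129616155-129616404 (minus) for Rrh. Capitals mark the motif matches described after them.
Rpe65: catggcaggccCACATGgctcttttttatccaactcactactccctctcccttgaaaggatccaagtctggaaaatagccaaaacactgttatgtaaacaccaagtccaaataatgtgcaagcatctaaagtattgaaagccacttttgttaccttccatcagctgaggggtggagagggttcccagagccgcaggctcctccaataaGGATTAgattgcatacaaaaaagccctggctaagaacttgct
Rgr: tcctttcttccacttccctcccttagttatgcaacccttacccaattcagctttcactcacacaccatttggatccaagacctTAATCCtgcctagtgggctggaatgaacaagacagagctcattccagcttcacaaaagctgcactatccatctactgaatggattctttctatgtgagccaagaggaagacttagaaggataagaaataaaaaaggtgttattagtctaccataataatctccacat
Rlbp1: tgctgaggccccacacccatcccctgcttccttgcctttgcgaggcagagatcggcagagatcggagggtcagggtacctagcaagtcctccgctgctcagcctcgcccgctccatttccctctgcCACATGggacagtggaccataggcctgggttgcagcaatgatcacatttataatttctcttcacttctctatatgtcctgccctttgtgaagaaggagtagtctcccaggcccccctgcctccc
Rrh: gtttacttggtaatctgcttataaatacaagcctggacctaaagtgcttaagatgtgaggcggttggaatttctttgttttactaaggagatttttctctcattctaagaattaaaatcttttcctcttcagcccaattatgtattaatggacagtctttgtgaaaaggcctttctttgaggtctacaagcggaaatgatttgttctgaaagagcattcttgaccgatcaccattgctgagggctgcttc

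The motifs searched on both strands were CATGTG, which reads CACATG on the other strand, and CACGTG, both E-boxes of the kind that MITF binds, then TAATCC, read GGATTA on the other strand, a core bound by OTX2, and ACAATG, read CATTGT on the other strand, a core bound by SOX9. CACATG occurred 239 bases before the start in Rpe65 and 124 bases before it in Rlbp1, and CATGTG or CACATG was in 12.3% of all 32851 windows. TAATCC or GGATTA was in the windows of Rpe65 (42 bases before the start), Rgr (167) and Best1 (227), against 6.25% of all windows. ACAATG was in the window of Rdh5 only (161 bases before the start), with 10.7% of all windows holding it or CATTGT. The other E-box, CACGTG, in 6.02% of all windows, matched none of the 8 members, and the printed window of Rrh held none of the motifs.

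Fluvastatin against PBS asked what the statin alone did to the injured retina. Of the 10 visual cycle genes, Ttr, Rgr, Stra6 and Rdh5 rose, Rlbp1 and Rrh fell, and Lrat, Rpe65, Rdh10 and Best1 were not called. Ttr was 2.23-fold and Rgr 2.08-fold higher than in PBS, whereas Rrh was 1.35-fold and Rlbp1 1.22-fold lower. The 6 called members stood against 25% of all 15129 genes tested, with 12.3% called higher and 12.7% called lower. The libraries of the groups did not overlap for 5 of the 10 members, against 43.3% of all genes. The median log2 fold change of the members was 0.66, with a range of -0.44 to 1.16, and that of all genes was near 0 (-0.0015).

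MBV against PBS asked the same of the vesicles. Ttr and Stra6 rose, Rlbp1 and Rrh fell, and the other 6 members were not called. Ttr was 1.84-fold and Stra6 1.67-fold higher, and Rrh was 1.58-fold and Rlbp1 1.30-fold lower. The 4 called members stood against 33.7% of the 15193 genes tested (16.1% higher, 17.5% lower), which is near their own share. The groups did not overlap for 4 of the 10 members, against 49% of all genes. The median of the members was 0.43 and that of all genes 0.0050.

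**Figure D1:**
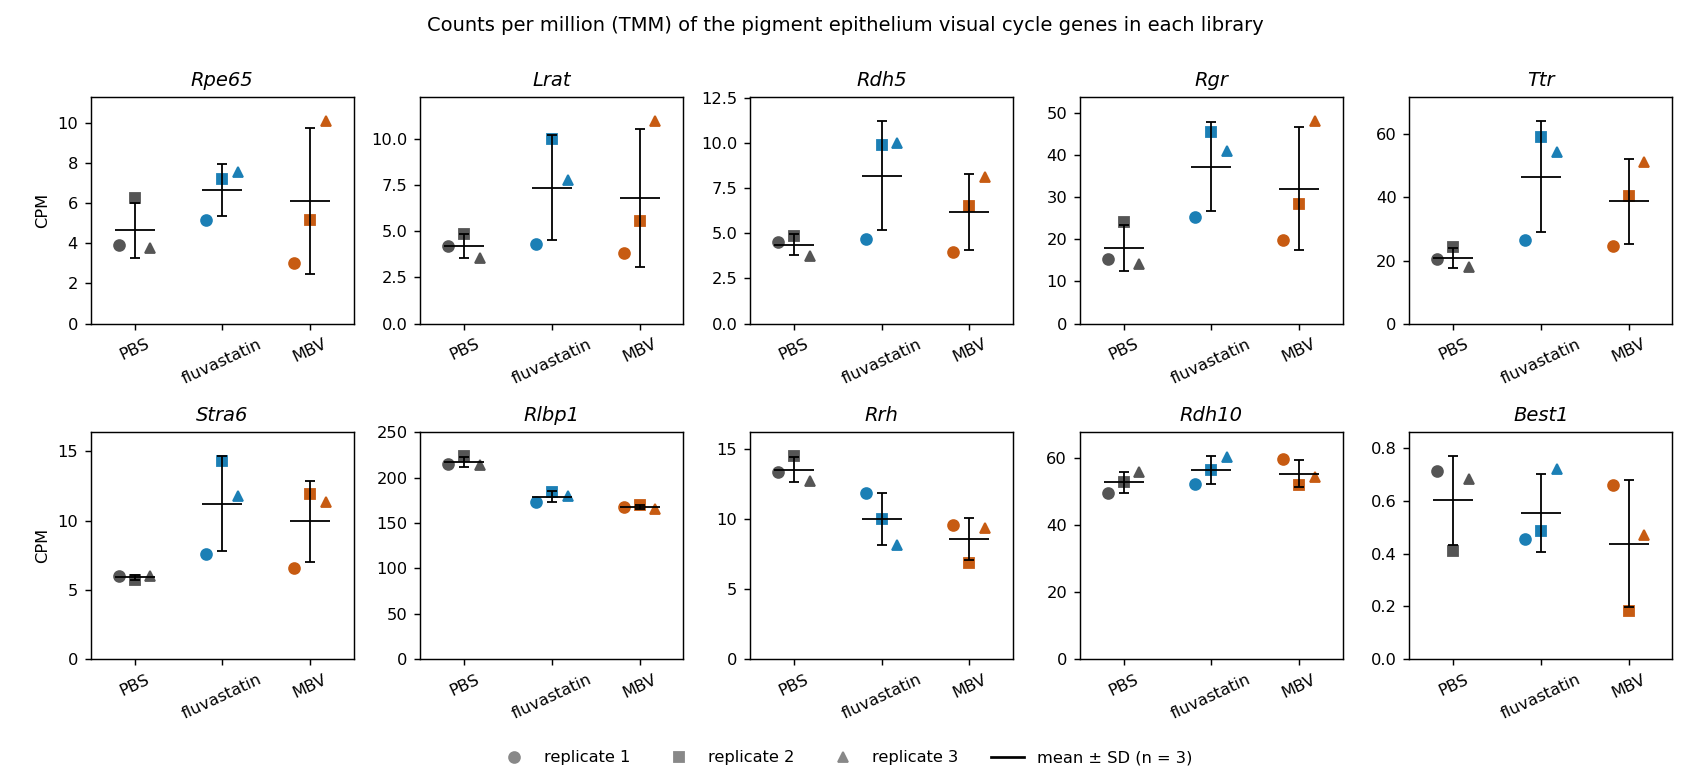
CPM of each visual cycle gene (y axis, from 0, a scale of its own in each panel) in the 3 libraries of each group (circle, square and triangle for replicates 1, 2 and 3), with black lines for the mean and SD (n = 3). For Ttr, Rgr, Stra6, Rdh5 and Lrat, replicate 1 of fluvastatin and replicate 1 of MBV sit near the PBS libraries and the other libraries of those groups sit higher, while all 6 treated libraries of Rlbp1 and Rrh lie below PBS.

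Genes of vitamin A transport were among those that rose. Ttr (chr18:20798337-20807378, plus strand) encodes transthyretin, which carries retinol with its binding protein and is secreted by the pigment epithelium. The PBS libraries held 628, 715 and 473 counts of Ttr (20.4, 24.4 and 17.9 CPM), the fluvastatin libraries 641, 1582 and 1279 (26.4, 59.1 and 54.3 CPM) and the MBV libraries 670, 882 and 1198 (24.5, 40.3 and 51.4 CPM). Every treated library was above every PBS library, but the replicates 1 were barely so. Ttr had a log2 fold change of 1.16 (SE 0.265, adjusted p = 0.0154) with fluvastatin and 0.88 (SE 0.245, adjusted p = 0.0283) with MBV in edgeR's test. Without any one of PBS 1, fluvastatin 2 or fluvastatin 3 the fluvastatin call was lost (highest adjusted p 0.0601, log2 fold change 0.95 to 1.44 over all libraries left out), and without PBS 1, PBS 3 or MBV 2 the MBV call was lost (0.62 to 1.13, highest adjusted p 0.0921).

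Stra6 (chr9:57971071-58061279, plus strand) encodes the cell-surface receptor that takes up retinol from its carrier. It was even across PBS, at 6.00, 5.69 and 6.02 CPM, against 7.55, 14.3 and 11.8 CPM with fluvastatin and 6.58, 11.9 and 11.3 CPM with MBV. No treated library overlapped PBS. Stra6 had a log2 fold change of 0.93 (SE 0.205, adjusted p = 0.0134) with fluvastatin and 0.74 (SE 0.209, adjusted p = 0.0297) with MBV in edgeR's test. The fluvastatin call held in 5 of the 6 fits that left out 1 library and was lost without PBS 1 (adjusted p 0.0513). The MBV call held only without MBV 1, and was lost without each of the PBS libraries, MBV 2 or MBV 3 (log2 fold change 0.59 to 0.97, highest adjusted p 0.0872). The gene overlaps Ccdc33 on the other strand, which had 1 to 11 counts per library, and the strand setting of the counting is not given in the sources used here.

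Lrat (chr3:82799886-82811280, minus strand), the acyltransferase that esterifies retinol for storage, was not called in either comparison. Its levels were 4.21, 4.84 and 3.56 CPM in PBS, 4.33, 9.98 and 7.77 CPM with fluvastatin and 3.84, 5.58 and 11.0 CPM with MBV. Replicate 1 of each treatment lay within the PBS range and the other libraries lay above it. The log2 fold change was 0.81 (SE 0.273, adjusted p = 0.0605) with fluvastatin and 0.68 (SE 0.352, adjusted p = 0.172) with MBV in edgeR's test. DESeq2 called Lrat with fluvastatin (0.81, adjusted p = 0.0130), as did the fit without fluvastatin 1 (1.08, adjusted p = 0.00196).

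Rpe65 (chr3:159304812-159330958, plus strand), the isomerase whose promoter opens the sequences printed above, was not called either. It measured 3.92, 6.24 and 3.75 CPM in PBS, 5.16, 7.21 and 7.56 CPM with fluvastatin, and 3.00, 5.17 and 10.1 CPM with MBV. The groups overlapped, since PBS 2 exceeded fluvastatin 1 and exceeded both MBV 1 and MBV 2. The log2 fold change was 0.52 with fluvastatin (95% interval 0.0042 to 1.03, adjusted p = 0.125) and 0.37 with MBV (-0.58 to 1.32, adjusted p = 0.515) in edgeR's test. The MBV value turned to -0.21 without MBV 3. With fluvastatin the call was made without PBS 2 and without fluvastatin 1 (log2 fold change up to 0.79, lowest adjusted p 0.0319).

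Of the retinol dehydrogenases, Rdh5 was called with fluvastatin and Rdh10 in neither comparison. Rdh5 (chr10:128749462-128758757, minus strand), which oxidizes the cis-retinol made by the isomerase, was at 4.54, 4.84 and 3.75 CPM in PBS, at 4.70, 9.87 and 10.0 CPM with fluvastatin, and at 3.95, 6.49 and 8.11 CPM with MBV. Fluvastatin 1 and MBV 1 lay within the PBS range. Rdh5 rose with fluvastatin (log2 fold change 0.90, SE 0.266, adjusted p = 0.0385 in edgeR's test), and with MBV its value was 0.48 (SE 0.250, adjusted p = 0.171). The call held only without fluvastatin 1 and was lost without any other of the 6 libraries (0.74 to 1.18, highest adjusted p 0.133). Rdh5 shares its strand and part of its span with Bloc1s1, so its counts are uncertain. Bloc1s1 had 191 to 359 counts per library and log2 fold changes of -0.07 with fluvastatin (adjusted p = 0.581) and -0.35 with MBV (adjusted p = 0.0226).

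Rdh10 (chr1:16175998-16203958, plus strand), which oxidizes all-trans retinol and is also used outside the pigment epithelium, stayed at 49.6 to 60.5 CPM across the 9 libraries. It was at 49.6, 52.9 and 55.8 CPM in PBS, 52.2, 56.6 and 60.5 CPM with fluvastatin, and 59.8, 51.9 and 54.4 CPM with MBV. The groups overlapped in every pairing. The log2 fold change was 0.10 with fluvastatin (95% interval -0.06 to 0.25, adjusted p = 0.325) and 0.06 with MBV (-0.09 to 0.22, adjusted p = 0.498) in edgeR's test, so the intervals reached at most about 0.25 on the log2 scale.

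Rlbp1 (chr7:79024618-79036796, minus strand) encodes CRALBP, the binding protein of cis-retinoids in the pigment epithelium and in Müller glia. It was the most abundant member and the most even between replicates. Its levels were 215, 223 and 214 CPM in PBS, 173, 184 and 179 CPM with fluvastatin, and 168, 170 and 166 CPM with MBV. The 3 groups formed separate ranges, with PBS highest and MBV lowest. Rlbp1 fell by 0.28 on the log2 scale with fluvastatin (SE 0.0419, adjusted p = 0.0033) and by 0.38 with MBV (SE 0.0375, adjusted p = 0.00096) in edgeR's test. Both calls held in all 6 fits with 1 library left out, with values of -0.31 to -0.26 and of -0.40 to -0.36.

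With fluvastatin the opsins of the cycle were called in opposite directions. Rgr (chr14:36756866-36770921, minus strand) encodes an opsin of the pigment epithelium and Müller glia that isomerizes retinal in light, and measured 15.4, 24.1 and 14.2 CPM in PBS, 25.3, 45.5 and 41.1 CPM with fluvastatin, and 19.8, 28.3 and 48.1 CPM with MBV. Fluvastatin did not overlap PBS, whereas MBV 1 lay below PBS 2. Rgr rose with fluvastatin (log2 fold change 1.06, SE 0.246, adjusted p = 0.0165 in edgeR's test), and its value with MBV was 0.82 (SE 0.326, adjusted p = 0.0856). The fluvastatin call was lost without PBS 1, fluvastatin 2 or fluvastatin 3 (0.88 to 1.33, highest adjusted p 0.0687), and MBV gave a call only without MBV 1 (1.10, adjusted p = 0.0396).

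Rrh (chr3:129598057-129616236, minus strand) encodes peropsin, a retinal-binding opsin of the pigment epithelium's apical microvilli. It was at 13.3, 14.4 and 12.7 CPM in PBS, 11.8, 9.98 and 8.11 CPM with fluvastatin, and 9.58, 6.86 and 9.31 CPM with MBV, and no treated library reached PBS. The log2 fold change was -0.44 with fluvastatin (SE 0.131, adjusted p = 0.0416) and -0.66 with MBV (SE 0.129, adjusted p = 0.0075) in edgeR's test. The MBV call held in all 6 fits with 1 library left out (-0.74 to -0.52). The fluvastatin call held only without fluvastatin 1 and was lost without any other library (-0.57 to -0.31, highest adjusted p 0.122).

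Best1 (chr19:9962538-9978997, minus strand), the bestrophin chloride channel of the basolateral membrane and a marker of the pigment epithelium rather than an enzyme of the cycle, had only 4 to 22 counts per library. It was at 0.713, 0.409 and 0.682 CPM in PBS, 0.454, 0.486 and 0.722 CPM with fluvastatin, and 0.658, 0.183 and 0.472 CPM with MBV. The groups overlapped, and the log2 fold changes were -0.12 with fluvastatin (95% interval -0.88 to 0.64, adjusted p = 0.812) and -0.42 with MBV (-1.44 to 0.59, adjusted p = 0.484) in edgeR's test. At this depth the intervals spanned more than 1 log2 unit, and no difference was detectable.

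**Figure D2:**
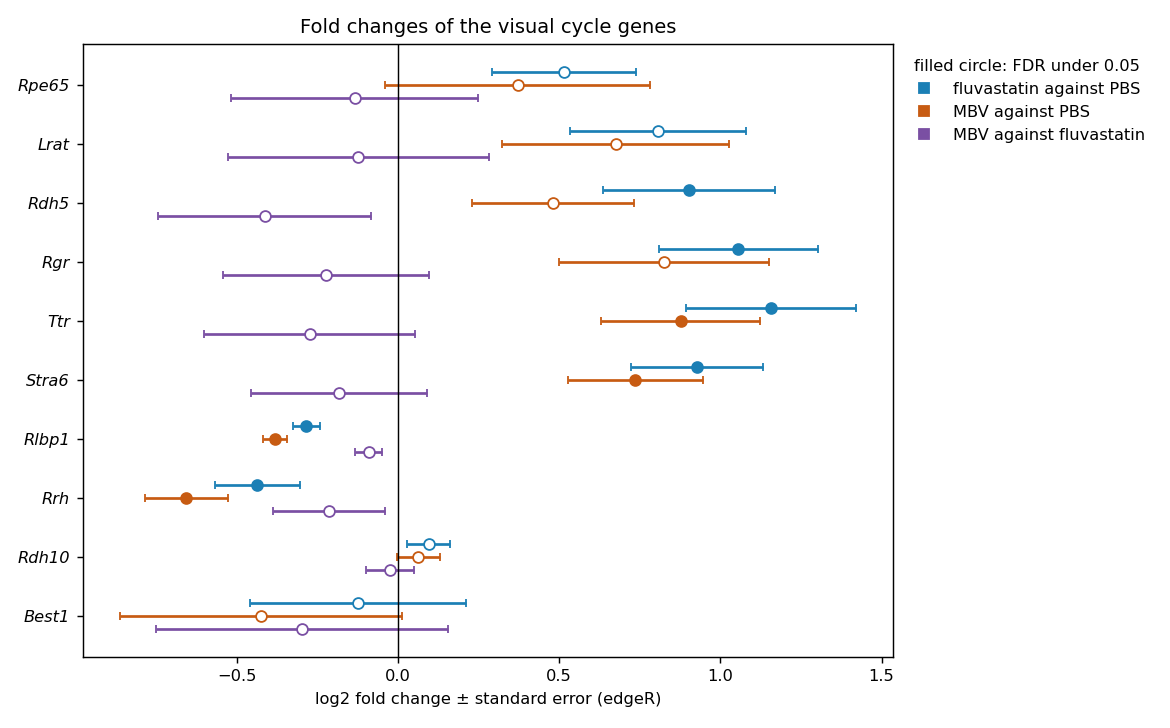
Log2 fold change of each visual cycle gene (x axis) from edgeR, with bars for the standard error, for fluvastatin against PBS, MBV against PBS and MBV against fluvastatin (n = 3 libraries a group). Filled circles had an FDR under 0.05: 6 members with fluvastatin, 4 with MBV and none between the treatments, where all 10 values lie below 0.

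MBV against fluvastatin compared the treatments within 1 set of library numbers. None of the 10 members was called by edgeR's quasi-likelihood test, none had an unadjusted p under 0.05, and DESeq2 called none, against 0.0332% of 15045 genes called by edgeR (0.00665% higher, 0.0266% lower) and 12.5% at an unadjusted p under 0.05. All 10 log2 fold changes were below 0, with a median of -0.20 and 0.0039 for all genes. The 95% intervals were -1.02 to 0.48 for Ttr, -0.81 to 0.45 for Stra6, -0.95 to 0.51 for Rgr and -1.17 to 0.35 for Rdh5. Their lower ends reached from -0.81 to -1.17, so the data do not show that the treatments act alike. The narrowest intervals were those of Rlbp1 (-0.19 to 0.0083) and Rdh10 (-0.19 to 0.14). Rlbp1 was the only member whose treated groups did not overlap, against 18.6% of all genes, and its adjusted p was 0.424. The genes called with fluvastatin but not with MBV, Rgr and Rdh5, had differences between the treatments of -0.22 (adjusted p = 0.802) and -0.41 (adjusted p = 0.631), so a difference in response was not shown.

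Within groups, the same libraries were low or high for many of the members. Fluvastatin 1 was the lowest library of its group for 9 of the 10 members, and the highest for Rrh. MBV 1 was lowest in its group for Rpe65, Lrat, Rgr, Ttr, Rdh5 and Stra6, and MBV 3 was highest for the same genes except Stra6. In PBS, replicate 2 was highest and replicate 3 lowest for 7 members, Rpe65, Lrat, Rlbp1, Rgr, Ttr, Rdh5 and Rrh. The highest library of a group exceeded the lowest by a median of 1.32-fold over the members in PBS, 1.69-fold with fluvastatin and 2.08-fold with MBV. For all 13971 genes with a mean of at least 1 CPM these medians were 1.11, 1.13 and 1.13. The members include Best1, which lies below 1 CPM, and the background genes were not matched to the members by level.

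**Figure D3:**
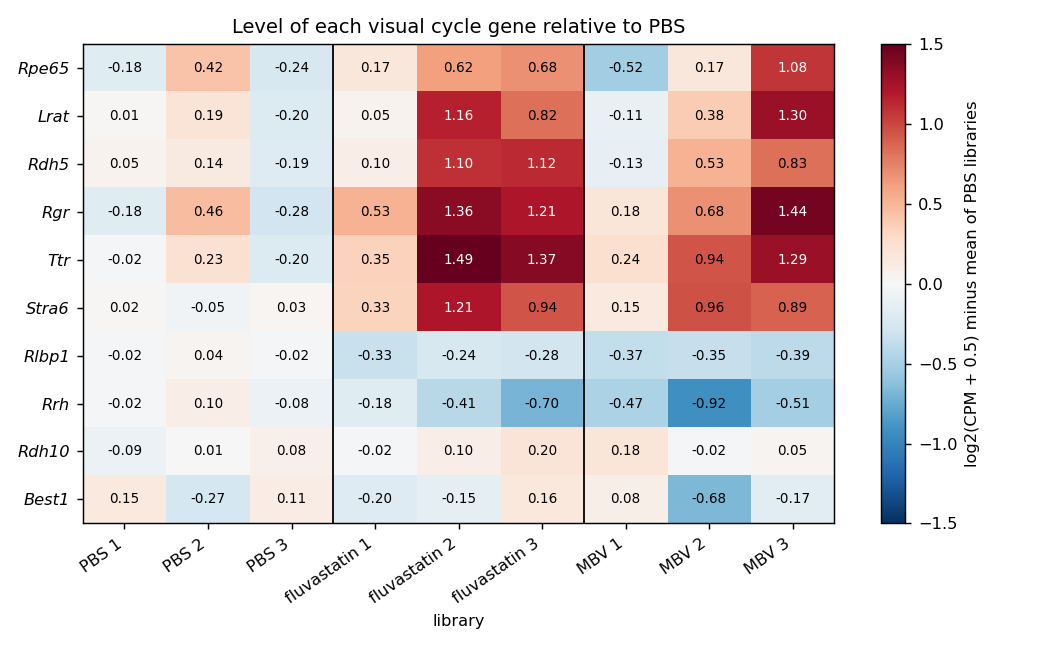
Each visual cycle gene (rows) in each library (columns), as log2(CPM + 0.5) minus the mean of the PBS libraries, in red above and blue below that mean. Ttr reaches 1.49 and 1.37 in fluvastatin 2 and 3 but 0.35 in fluvastatin 1, while Rlbp1 lies between -0.39 and -0.24 in all 6 treated libraries.

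Levels were compared between genes per kilobase of merged exons. In PBS, Rlbp1 was highest at 60.6 ± 1.45 CPM per kilobase (SD, n = 3), followed by Rdh10 at 11.5 ± 0.682, Ttr at 10.9 ± 1.71, Rgr at 3.74 ± 1.13, Rpe65 at 2.38 ± 0.714 and Rrh at 2.28 ± 0.151. Rdh5 (0.838 ± 0.108), Lrat (0.784 ± 0.119), Stra6 (0.699 ± 0.0218) and Best1 (0.233 ± 0.0649) came last on this scale. Of the neighbours in that order, Rdh10 and Ttr, Rgr and Rpe65, Rpe65 and Rrh, Rdh5 and Lrat, and Lrat and Stra6 had overlapping libraries. Ttr stood second with both treatments, at 24.4 CPM per kilobase with fluvastatin and 20.3 with MBV. Its libraries overlapped those of Rdh10 with MBV but not with fluvastatin.

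The levels of the members over all 9 libraries were also compared with that of Rpe65 by Pearson's r of log2(CPM + 0.5), as a description. The libraries share their groups, so the values carry the differences between groups. Among 13970 genes with a mean of at least 1 CPM, Lrat ranked 2 (r = 0.90), Rgr 4 (0.89), Rdh5 14 (0.83), Ttr 30 (0.80) and Stra6 170 (0.68). Rdh10 (0.06), Rlbp1 (-0.25) and Rrh (-0.28) did not follow it. The genes outside the lists most like Rpe65 were Borcs8 (0.95), Ccpg1 (0.90), Col8a2 (0.88), Stard10 (0.85) and Mt3 (0.85). Those most like Rdh10 were Ccdc92b (0.92), Ggt7 (0.91), Cptp (0.90), Sco1 (0.88) and Fam220a_1 (0.86).

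Of 14 other genes of the pigment epithelium, 5 rose and 2 fell with fluvastatin (median log2 fold change -0.04), and 4 rose and none fell with MBV (median -0.06). The shares of all genes called, 25% and 33.7%, are the background for these counts and those of the lists that follow, and the count with MBV is near it. With fluvastatin Cdh3, a cadherin of the epithelium's junctions, rose by 1.17 (SE 0.160, adjusted p = 0.0027), Krt18, a simple-epithelium keratin, by 0.30 (SE 0.0618, adjusted p = 0.0108), and the cation channel gene Trpm3 fell by 0.24 (SE 0.0529, adjusted p = 0.0137) on the log2 scale in edgeR's test. With MBV Mertk, the receptor for engulfing outer segments, rose by 0.47 (SE 0.0674, adjusted p = 0.0025), Krt18 by 0.28 (SE 0.0589, adjusted p = 0.0103) and the collagen gene Col8a1 by 0.36 (SE 0.0935, adjusted p = 0.0219). With 1 library left out, the counts of risen genes ran from 1 (without PBS 1) to 5 with fluvastatin, with 2 without fluvastatin 2 or 3. For MBV they ran from 1 (without PBS 1) to 6 (without MBV 1), with 2 without PBS 2, PBS 3 or MBV 2. Fallen genes numbered 0 (without PBS 1) to 3 (without fluvastatin 1) with fluvastatin, and with MBV 2 without PBS 2 and 3 without MBV 3.

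The melanin genes, which the pigment epithelium shares with melanocytes of the choroid and iris, went opposite to Ttr and Stra6. Of the 8 of 9 that passed the filter on low counts, 5 fell and none rose with fluvastatin (median -1.71), and 7 fell and none rose with MBV (median -1.96). Pmel, a melanosome matrix protein, fell by 2.00 with fluvastatin (SE 0.129, adjusted p = 0.00038) and by 2.43 with MBV (SE 0.194, adjusted p = 0.00085) in edgeR's test. Dct fell by 1.67 and 1.72 and Tyr, the first enzyme of melanin synthesis, by 1.75 with fluvastatin, while Mlana fell by 3.00 with MBV. The summed level of the list was 102 to 151 CPM in PBS, 36.3 to 44.5 CPM with fluvastatin and 29.4 to 46.8 CPM with MBV, with no overlap. Leaving out 1 library gave 5 fallen genes with fluvastatin in every case and 6 or 7 with MBV.

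Markers of tissue outside the neural retina were also lower in most treated libraries. Of 8 choroid and sclera markers 4 fell with fluvastatin (median -1.51) and 3 with MBV (median -1.41), and of 6 ciliary body and iris markers 3 fell with each (medians -0.77 and -1.09). None of either list was called higher in these fits. Col1a1, a fibrillar collagen gene of the choroid and sclera list, was nevertheless above PBS with MBV, at 9.43, 5.81 and 5.96 CPM against 5.12, 4.60 and 3.60 CPM without overlap (log2 fold change 0.66, SE 0.222, adjusted p = 0.0511 in edgeR's test), and other settings called 1 gene of that list higher with MBV. With fluvastatin, in contrast, Col1a1 was among the fallen genes (log2 fold change -0.59, SE 0.184, adjusted p = 0.0478 in edgeR's test). DESeq2 called 1 gene of the choroid and sclera list lower with fluvastatin. Dcn fell by 2.15 and Lum by 2.57 on the log2 scale with fluvastatin, Ogn by 2.12 and Lum by 2.20 with MBV, and the ciliary marker Zic1 by 1.22 and 1.30, Zic2 by 0.75 and 0.88, and Msx1 by 1.78 and 2.09. Aldh1a2, also in the retinoic acid list, fell by 1.89 and 1.71. Lum, Msx1 and Aldh1a2 had 14 to 20, 9 to 16 and 8 to 16 counts per library in PBS, and at most 6 in any treated library. They passed the filter on low counts only through PBS, so a fall was the only change they could show. Their calls are part of the counts of fallen genes above. The choroid and sclera markers summed to 57.3 to 70.5 CPM in PBS, 15.6 to 62.1 CPM with fluvastatin and 16.9 to 62.5 CPM with MBV. The mean level of the ciliary and iris markers, as log2(CPM + 0.5), was 2.94 to 3.25 in PBS, 1.79 to 3.02 with fluvastatin and 1.75 to 2.75 with MBV.

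Fluvastatin 1 and MBV 3 stood apart in these lists. Optc, a ciliary body gene, was at 21.7 to 28.1 CPM in PBS, 39.7 CPM in fluvastatin 1 and 15.9 CPM in MBV 3, but 0.804 to 1.68 CPM in the other treated libraries. Fluvastatin 1 was also the library where Ttr, Rgr, Stra6, Rdh5, Lrat and Rpe65 were lowest among the fluvastatin libraries, whereas MBV 3 was where most of them were highest in theirs. Without fluvastatin 1, 8 members were called against 28.9% of all genes, Lrat and Rpe65 being the added ones. Without MBV 3, 3 members were called against 37.2% of all genes, Ttr, Rlbp1 and Rrh. The choroid and sclera list then had 6 fallen genes in each comparison, with 1 risen with MBV. Over all libraries left out, its fallen genes numbered from 2 (without PBS 1, PBS 2, fluvastatin 2 or fluvastatin 3) to 6 with fluvastatin, and from 0 (without PBS 1, PBS 2 or MBV 1), with 1 without PBS 3, to 6 with MBV. Those of the ciliary and iris list numbered from 0 (without PBS 1 or fluvastatin 2) to 5 (without fluvastatin 1, with 1 gene risen) with fluvastatin, and with MBV 4 without MBV 3 and 1 without any other library. The part of this tissue in the changes of the visual cycle genes was not tested.

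**Figure D4:**
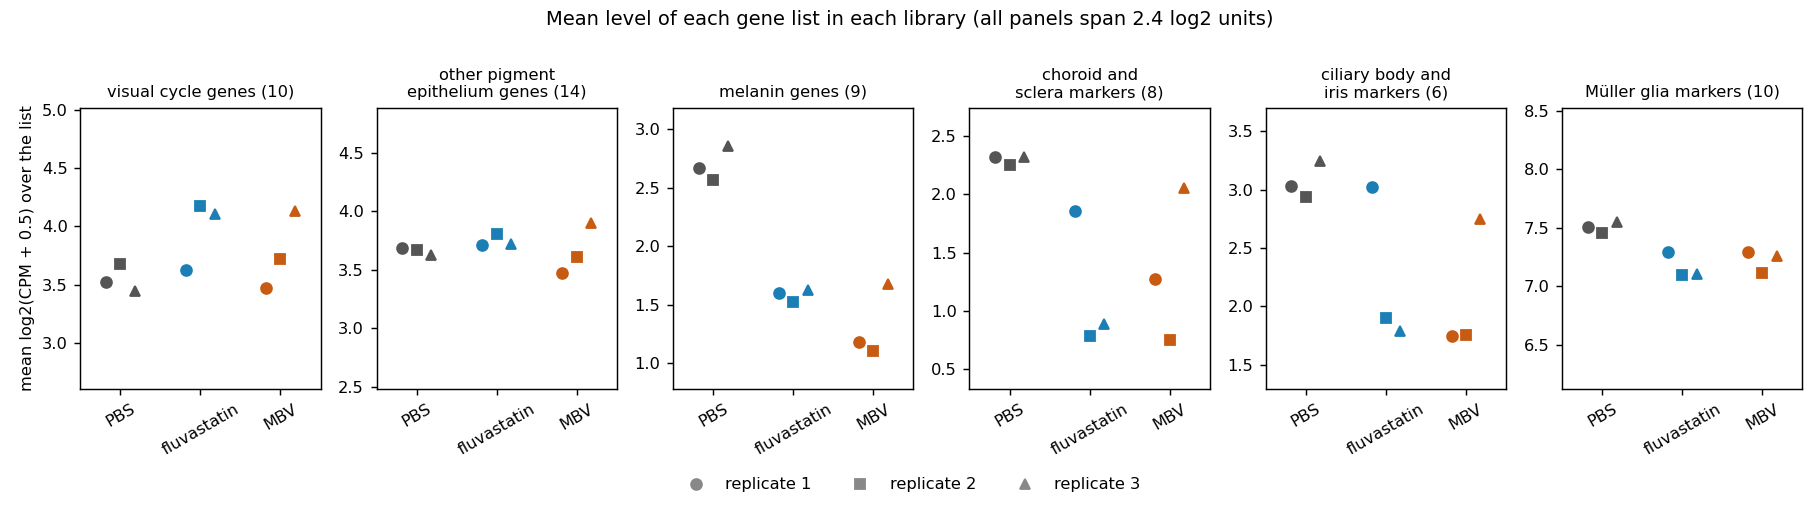
Mean log2(CPM + 0.5) over each gene list (y axis, 2.4 log2 units in each panel) in the 3 libraries of each group, with the replicate given by the symbol. The visual cycle genes run from 3.45 to 3.68 in PBS and up to 4.18 with fluvastatin, the melanin genes drop from 2.57 or more to 1.68 or less in all 6 treated libraries, and fluvastatin 1 and MBV 3 lie near PBS for the choroid, sclera, ciliary body and iris markers.

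Since Müller glia also express Rlbp1, Rgr and Rdh10, their markers were read beside these genes. Of 10 Müller glia markers 5 fell with fluvastatin (median -0.35) and 3 with MBV (median -0.15), and none was called higher. Dkk3 fell by 0.56 with fluvastatin (SE 0.0905, adjusted p = 0.0044) and by 0.55 with MBV (SE 0.106, adjusted p = 0.0068) in edgeR's test. Car14, a carbonic anhydrase of the glial membrane, fell by 0.80 with fluvastatin and 0.79 with MBV, the transporter gene Abca8a by 0.61 with fluvastatin, and the water channel gene Aqp4 by 0.60 with MBV. The summed level of the list was 3857 to 4464 CPM in PBS, 2266 to 3572 CPM with fluvastatin and 2147 to 3561 CPM with MBV, so it was lower in every treated library than in PBS. Glul held the largest part of this sum, with means of 2326, 1293 and 1230 CPM in PBS, fluvastatin and MBV. Its treated libraries overlapped PBS, and it was not called in either comparison. The mean log2(CPM + 0.5) of the list was 7.45 to 7.55 in PBS, 7.10 to 7.29 with fluvastatin and 7.12 to 7.30 with MBV. Single markers did not all follow the sum. Vim, an intermediate filament gene, measured 154, 143 and 177 CPM in PBS, 142, 205 and 276 CPM with fluvastatin, and 240, 322 and 135 CPM with MBV, and 3 of the 10 markers had fold changes above 0 with MBV and 2 with fluvastatin. Their part in the change of Rlbp1 was not tested. The fluvastatin count was 3 without PBS 1 or fluvastatin 2, and 6 without fluvastatin 1, with 1 gene risen. The MBV count was 2 without PBS 1, PBS 2 or MBV 1, and 5 without MBV 3, with 2 genes risen.

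Of 16 retinoid cycle genes of photoreceptors and other retinal cells, 2 rose and 1 fell with fluvastatin (median -0.04), and 2 rose and 2 fell with MBV (median -0.05). Rdh8, the retinol dehydrogenase of outer segments, rose by 0.39 with fluvastatin (SE 0.0686, adjusted p = 0.0057) and by 0.24 with MBV (SE 0.0582, adjusted p = 0.0164) in edgeR's test. It measured 64.2, 66.9 and 58.6 CPM in PBS, 89.5, 82.1 and 78.0 CPM with fluvastatin, and 77.6, 73.8 and 74.2 CPM with MBV, without overlap. The desaturase gene Degs1 fell by 0.29 and 0.36. Of 10 rod markers 1 fell with fluvastatin (Sag, by 0.32) and 5 with MBV, among them Sag by 0.50 and Cnga1 by 0.41, and none rose. The rod count with MBV was 10 without MBV 3, 3 without PBS 3, 2 without MBV 2, and 1 without MBV 1, PBS 1 or PBS 2. With fluvastatin it was 5 without fluvastatin 1, 2 without PBS 3 and 0 without any other library. DESeq2 called 5 rod markers lower with fluvastatin and 8 with MBV, a replicate block 4 and 2, and 1 fit of all 9 libraries 0 and 7. Of the 16 retinoid cycle genes, 7 fell with MBV without MBV 3, and otherwise 1 or 2 fell and 1 or 2 rose against PBS in every fit with 1 library left out.

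**Figure D5:**
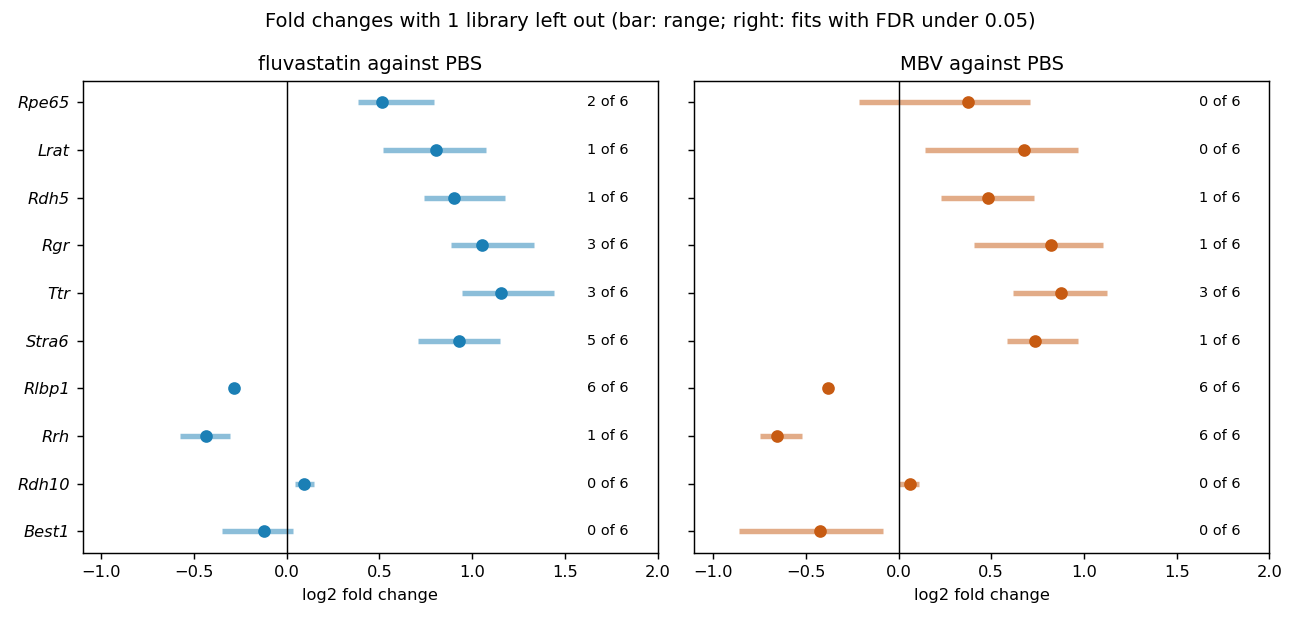
Log2 fold change of each visual cycle gene (x axis) with all libraries (point) and its range when each of the 6 libraries was left out in turn (bar), with the number of those fits called at an FDR under 0.05 at the right. Rlbp1 was called in 6 of 6 fits in both comparisons and Rrh in 6 of 6 with MBV, whereas Ttr was called in 3 of 6 in each.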

How the data were processed

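Raw counts per gene were used as deposited: the authors extracted RNA with TRIzol, made TruSeq Total RNA libraries, sequenced paired reads of 75 bases, and aligned and counted them against GRCm39 in CLC Genomics Workbench. No normalization had been applied to these counts. In the table of the combined treatment, 6 count columns named no library and were not used. The columns of the authors' own comparisons (fold changes, p-values and FDRs) were not used either. Genes with over 10 counts in at least 2 libraries of 1 of the groups compared were fitted in R 4.3.3 with edgeR 4.0.16 (TMM, quasi-likelihood test, Benjamini-Hochberg adjustment over all genes tested), with the 6 libraries of each comparison alone. A change was called at an FDR under 0.05. DESeq2 1.42.0, other filters, 1 fit of 9 libraries, a replicate block and leaving out each library were the alternatives. The fits were tested on simulated data. Levels are TMM-scaled CPM, with a pseudocount of 0.5 on the log2 scale and merged exon lengths of the GENCODE annotation. Python 3.11.15 with pandas 2.3.3 and matplotlib 3.10.9 was used for the rest.

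The 21349516 to 30992040 counts per library gave a coefficient of variation between replicates of 7.73%, 8.49% and 9.96% for fluvastatin against PBS, MBV against PBS and MBV against fluvastatin, from edgeR's common dispersion. No pair of libraries of a group agreed within sampling noise. All members are named in every comparison. Of the other lists, at most 3 called genes a list and comparison are named, by smallest FDR, except for some that are not reported here, and likeness names the 5 genes with the highest r. Optc, Opn4, Best2, Col1a1, Vim, Glul, Bloc1s1 and Ccdc33 were named after their values were seen. The members and lists were chosen with earlier results of these data known. The lists were pigment epithelium, melanin, photoreceptor retinoid cycle, retinoic acid, Müller glia, rods, choroid and sclera, ciliary body and iris, and non-visual opsins with bestrophins.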

Additional observations from a re-analysis of the deposited data

How the results depend on the processing

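With an added fold change of at least 2, 2 members were called with fluvastatin (Ttr and Rgr, with 1.28% of all genes) and 0 with MBV (2.22% of all genes), where edgeR's FDR alone gave 6 and 4. Leaving out 1 library gave 1 (without PBS 1) to 8 (without fluvastatin 1) called members with fluvastatin and 2 (without PBS 1, PBS 3 or MBV 2) to 6 (without MBV 1) with MBV. Without PBS 1, 11.2% and 18.2% of all genes were called. The shares without fluvastatin 1 and without MBV 3 are given above. For the other libraries left out no share is given, so those counts are not read as a result about the members. The count was 0 throughout for MBV against fluvastatin. DESeq2 called 7, 4 and 0 members in the 3 comparisons, DESeq2's size factors in edgeR and the filters on any count or on 2 of the 6 libraries (the last chosen after seeing the data) gave 6, 4 and 0, and 1 fit of all 9 libraries gave 4, 3 and 0. In that fit Rdh5 (adjusted p 0.0535) and Rrh (0.0574) with fluvastatin and Ttr with MBV (0.0502) lost their calls. No share of all genes is given for DESeq2, the other size factors and filters, the fit of 9 libraries or the replicate block. Their counts are thus not read as a result about the members. Signs turned when 1 library was left out for Best1 with fluvastatin (-0.35 to 0.032), for Rpe65 with MBV (-0.21 to 0.71), and, between the treatments, for Rpe65 (-0.72 to 0.20), Lrat (-0.66 to 0.17), Rgr (-0.64 to 0.037), Stra6 (-0.40 to 0.050), Rdh10 (-0.084 to 0.021) and Best1 (-0.73 to 0.045), none of them called. The cause was not tested. Among the other lists, counts also moved for the rod markers, with 0 to 5 fallen with fluvastatin and 2 to 8 with MBV over the settings that kept all libraries, and for the choroid and sclera markers, with 1 to 4 and 2 or 3 fallen, and with 1 risen with MBV under DESeq2's size factors, the any-count filter, DESeq2, 1 fit of 9 libraries and the replicate block.

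A replicate block gave 7, 4 and 0 called members, adding Lrat with fluvastatin (log2 fold change 0.75, adjusted p = 0.0365) and changing no other call. Correlations of the deviations from group means were -0.364 to 0.155 for same-numbered libraries and -0.279 to 0.342 for differently numbered ones. With 3 libraries a group, these values cannot show what same-numbered libraries share besides the number. Comparisons that need the combined treatment were not run. The counting error of Best1, at 4 to 22 counts, and the 3 libraries a group limit what these data can show.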

Other observations

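Genes of retinoic acid synthesis and response, which draw on the same retinoids, were mixed. Of 13 listed, none rose and 2 fell with fluvastatin (median log2 fold change 0.13), and 1 rose and 2 fell with MBV (median 0.06). Aldh1a1, a retinaldehyde dehydrogenase, fell by 0.61 with fluvastatin (SE 0.0974, adjusted p = 0.0043) and by 0.49 with MBV (SE 0.109, adjusted p = 0.0120) in edgeR's test. Aldh1a2 fell as given among the choroid markers, from a mean of 0.456 CPM in PBS, the only group through which it passed the filter on low counts. Aldh1a3 rose by 1.17 with MBV (SE 0.338, adjusted p = 0.0318), from 1.65, 1.23 and 1.51 CPM in PBS to 3.91, 4.30 and 1.72 CPM, and the MBV 3 library exceeded PBS 1 by little. With 1 library left out, the MBV count of risen genes was 1 without MBV 3 and 0 without any other library, and its fallen genes numbered 0 (without PBS 1 or MBV 1) to 2. With fluvastatin 1 gene fell without PBS 1, PBS 2, fluvastatin 2 or fluvastatin 3, and 3 rose without fluvastatin 1. In that comparison 1 gene also rose without fluvastatin 3, with DESeq2's size factors in edgeR and in 1 fit of all 9 libraries.

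Of the other non-visual opsins and bestrophins, 4 of 5 passed the filter on low counts. EdgeR's quasi-likelihood test called none in either comparison with PBS, with 0 at an unadjusted p under 0.05 for fluvastatin and 1 for MBV, and DESeq2 called none. Without fluvastatin 1, and without MBV 3, 1 gene of the list was called lower in the respective comparison. Best2, a bestrophin of the ciliary epithelium, was at 4.15, 3.54 and 3.18 CPM in PBS, 2.85, 0 and 0.0849 CPM with fluvastatin and 0.219, 0.0457 and 2.66 CPM with MBV, so the groups did not overlap, and fluvastatin 1 and MBV 3 were the libraries nearest to PBS. Its log2 fold changes were -1.91 (SE 0.889, adjusted p = 0.147) and -1.92 (SE 0.825, adjusted p = 0.109) in edgeR's test. Opn4, the melanopsin of intrinsically photosensitive ganglion cells, measured 3.14 to 4.20 CPM in PBS, 3.70 to 3.92 CPM with fluvastatin and 3.58 to 4.44 CPM with MBV, with overlapping groups.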
